A study of Homo sapiens with 6 samples.

Results

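Rab GTPases are small proteins of the Ras superfamily that mark the membranes of a cell and steer transport vesicles between them, and their genes were described here in leukaemia cells with and without added ERG. They were taken from a table of read counts as every row whose symbol was RAB, a number and at most a further letter and digit, leaving out RAB27B. This gave 54 of the 14821 genes in the table. Of these, 51 were assigned by known role to a step of vesicle traffic and 3 (RAB1C, RAB28P5 and RAB43P1) are annotated as pseudogenes in GENCODE v29. The cells were F36P, a human acute erythroid leukaemia line, transduced with the retrovirus MSCV-PIG-AM-ERG (3 libraries) or with the empty retrovirus MSCV-PIG (3 libraries). ERG is a transcription factor of the ETS family. Cells of both groups carried a retrovirus and had been kept in 1 µg/ml puromycin for 4 days, so none was untreated. The purpose stated for the experiment was to learn how ERG holds back erythroid differentiation. Each group is a pool of transduced cells of a single line, measured in bulk. The labels call the replicates biological but do not say that the cultures were separate, so the p-values measure the spread between these libraries.

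Each Rab cycles between a GDP-bound form, which the GDP dissociation inhibitors draw off the membrane, and a GTP-bound form, which exchange factors (GEFs) switch on and GTPase-activating proteins (GAPs) switch off. In the GTP-bound form a Rab recruits effectors such as motor proteins, tethers and fusion factors, so that different Rabs serve the endoplasmic reticulum and Golgi, the endosomes, the lysosome and the secretory granules. In blood cells they are best known from the granules of platelets, mast cells and cytotoxic lymphocytes, and from the uptake of transferrin iron by erythroid cells.

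Libraries held 10257141 to 14803031 counted reads. ERG itself had 97.4, 103.0 and 103.8 CPM (a gene's reads relative to all counted reads of the library, scaled by TMM) in ERG libraries, against 28.1, 14.6 and 22.4 CPM in vector libraries, and so was higher in every ERG library. Of 14203 genes tested by edgeR's quasi-likelihood test, 313 (2.20%) passed a Benjamini-Hochberg adjusted p of 0.05, of which 209 were higher and 104 lower in ERG libraries. Expression also divided the libraries in a way the groups do not, into ERG 1, ERG 2 and vector 1 (set A) and ERG 3, vector 2 and vector 3 (set B). ERG 1 and ERG 2 were closer to each other than any other pair. With the set as a term, 1869 genes passed (13.2%). The sets were drawn from these same libraries, so p-values with that term may be too low, and calls are given without it unless the set term is named. All 15 erythroid markers were tested, and their summed level was 4632 to 7714 CPM in ERG libraries and 12176 to 20201 CPM in vector libraries. HBG2 was the highest of them in every library and so weighs most in that sum.

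Of the 54 Rab genes, 53 had at least 1 CPM in at least 3 libraries and were tested. Of these, RAB1C, RAB30, RAB32, RAB39A and RAB3C had fewer than 3 vector libraries at 1 CPM, and RAB39A and RAB43 fewer than 3 ERG libraries. RAB3C and RAB44 rose with ERG, and no Rab gene fell. The 2 calls are 3.77% of the tested Rab genes, against 2.20% of all genes, so the share was near the background. In bulk RNA, fewer cells of a type and less RNA per cell cannot be told apart. By direction, 1.47% of all genes passed as higher and 0.732% as lower. At an unadjusted p under 0.05 the same test had 6 Rab genes higher and 2 lower, which is 15.1% of those tested, against 15.9% of all genes. DESeq2 called 4 Rab genes higher and 0 lower, while it called 7.08% of all genes, 4.20% as higher and 2.89% as lower. With the set term, edgeR called 7 Rab genes higher and 1 lower (15.1% of those tested), against 7.20% of all genes as higher and 5.96% as lower. The log2 fold changes of the 53 genes ran from -0.89 to 2.45 with a median of 0.10, against -0.01 over all genes, and 31 of the 53 lay within 0.3 of 0. ERG libraries were all above vector libraries for 8 Rab genes and all below for 5, against 12.3% and 9.54% of all tested genes (21.9% in both directions). The summed level of all 54 Rab genes was 3019 to 3030 CPM in ERG libraries and 2672 to 2902 CPM in vector libraries.

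**Figure D1:**
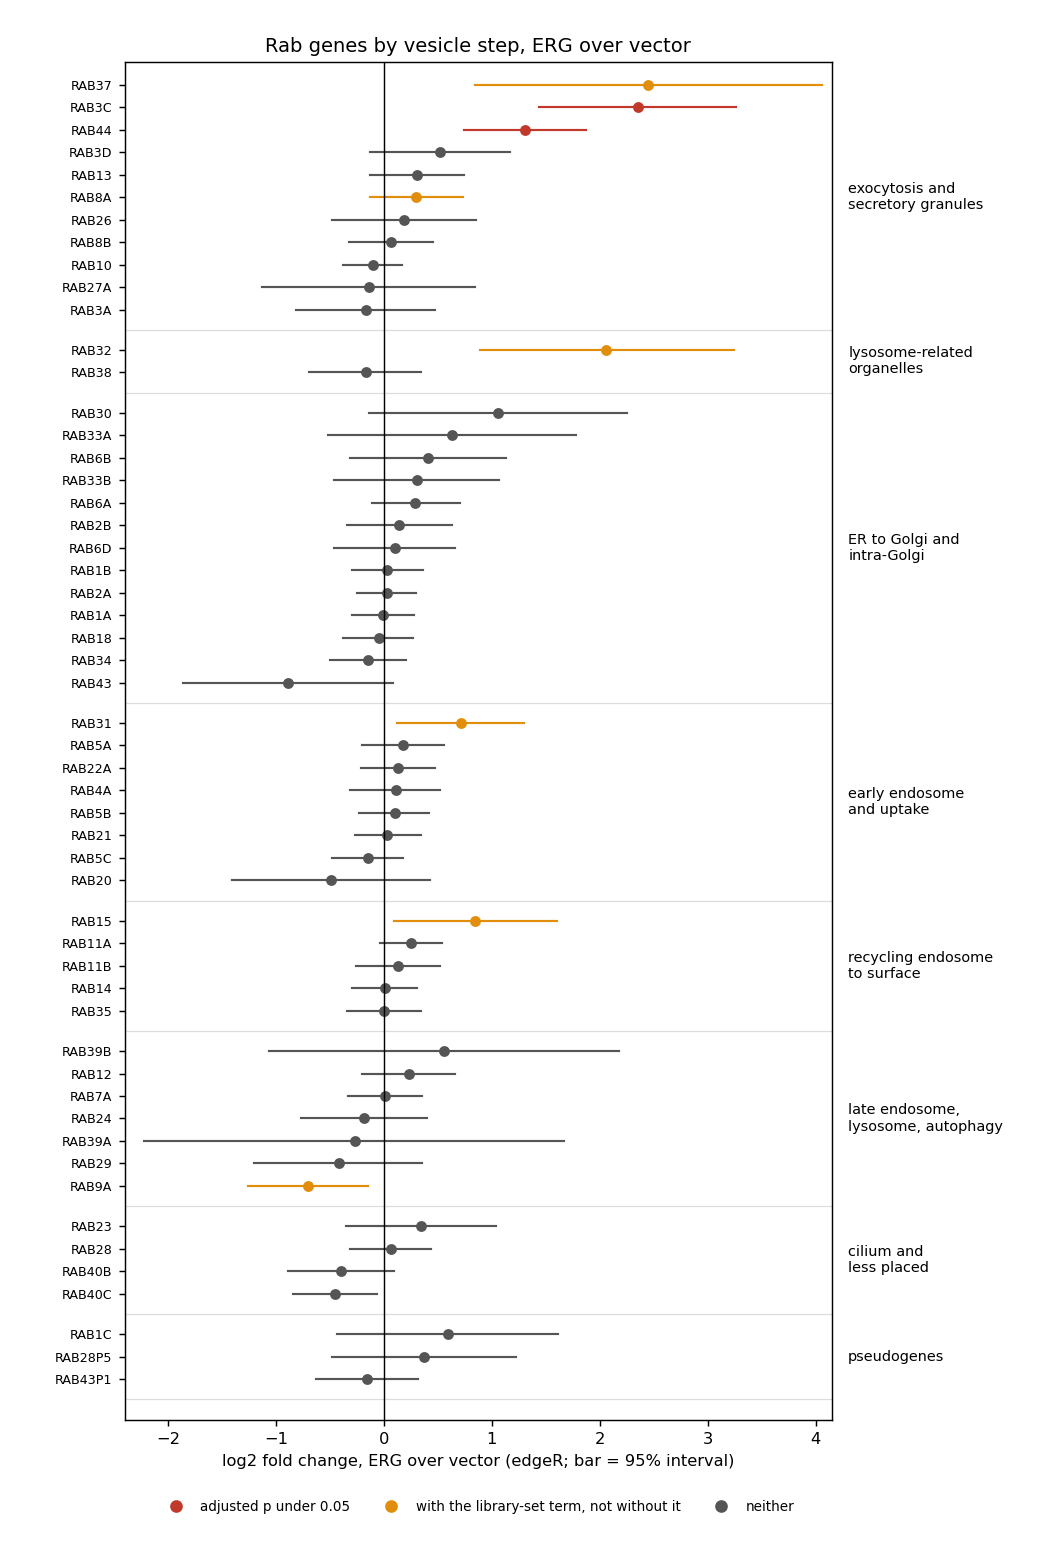
Log2 fold change of each of the 53 tested Rab genes, ERG over vector, by edgeR, with the bar as its 95% interval, grouped by vesicle step. RAB3C and RAB44 are marked as past an adjusted p of 0.05, 6 others (RAB37, RAB32, RAB15, RAB31, RAB8A and RAB9A) as past it with the library-set term but not without it, and most of the rest sit near 0.

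The upstream sequence of the Rab genes that passed in either fit with no overlap between the groups and have an entry in the RefSeq promoter table (GRCh38.p14) is shown for RAB3C, RAB32, RAB31 and RAB9A, since ERG binds ETS motifs whose core is GGAA. Each run holds the 250 bases before the start that this RefSeq table gives the gene, 5′ to 3′ on the gene's strand. The GENCODE v29 starts, given with the genes' own positions, lie further upstream in all 4, by only a few bases for RAB9A. Each run therefore reaches into the GENCODE gene, and that of RAB3C lies wholly inside it. Capitals mark GGAA on either strand, so TTCC is a match on the other strand, and no 2 matches overlap.
RAB3C: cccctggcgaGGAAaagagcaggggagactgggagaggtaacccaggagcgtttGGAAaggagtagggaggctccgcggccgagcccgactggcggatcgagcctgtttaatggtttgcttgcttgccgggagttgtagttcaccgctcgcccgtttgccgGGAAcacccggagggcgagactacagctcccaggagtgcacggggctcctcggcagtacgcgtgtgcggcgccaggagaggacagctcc
RAB32: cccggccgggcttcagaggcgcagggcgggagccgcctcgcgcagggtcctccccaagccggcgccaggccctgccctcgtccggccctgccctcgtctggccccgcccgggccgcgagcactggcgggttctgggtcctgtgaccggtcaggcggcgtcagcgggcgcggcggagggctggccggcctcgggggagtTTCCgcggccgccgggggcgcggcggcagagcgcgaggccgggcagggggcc
RAB31: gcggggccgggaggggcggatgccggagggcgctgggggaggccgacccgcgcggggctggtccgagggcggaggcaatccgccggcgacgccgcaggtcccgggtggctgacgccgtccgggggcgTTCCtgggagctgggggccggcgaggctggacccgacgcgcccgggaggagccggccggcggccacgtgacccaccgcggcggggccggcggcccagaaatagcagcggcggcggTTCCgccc
RAB9A: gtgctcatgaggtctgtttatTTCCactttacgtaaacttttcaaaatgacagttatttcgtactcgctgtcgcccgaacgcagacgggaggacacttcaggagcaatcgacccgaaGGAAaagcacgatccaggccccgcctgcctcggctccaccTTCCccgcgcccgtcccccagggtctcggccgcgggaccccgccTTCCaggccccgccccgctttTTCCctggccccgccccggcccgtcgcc
In GRCh38.p14, all on the plus strand, these are chr5:58582825-58583074 for RAB3C, chr6:146543583-146543832 for RAB32, chr18:9708051-9708300 for RAB31 and chrX:13688878-13689127 for RAB9A. The core occurs 3 times in the run of RAB3C, 1 time for RAB32, 2 times for RAB31 and 5 times for RAB9A. The GATA core GATAA, searched on both strands because GATA1 is the leading erythroid factor, occurs in none of the 4. For comparison, GGAA was found in 92.7% of 35116 promoters of this length and in 86.2% of the 58 promoters of 39 Rab genes, and GATAA in 20.4% of all promoters and 15.5% of Rab promoters. A match in these letters is a description and not a site of binding.

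The exocytosis and secretory granule Rabs held both calls: 2 of 11 tested members rose and none fell (18.2%, against 2.20% of all genes), and 4 rose with the set term (36.4%, against 13.2% of all genes). The lists by step were drawn up with earlier results of these data known, so these shares are not independent support. With so few members each call is a large share, and RAB3C passed the filter on low values only through its ERG libraries. Their median log2 fold change was 0.30, against -0.01 over all genes. Their summed level was 579 to 660 CPM in ERG libraries and 494 to 549 CPM in vector libraries. Markers of other granule-bearing cells differed in the same libraries. The summed level of 7 mast cell and basophil markers was 1833 to 1898 CPM in ERG libraries and 601 to 931 CPM in vector libraries. Of these 3 rose and 0 fell, or 6 and 0 with the set term. CPA3 and HDC made up most of that sum, and FCER1A was at 0 in vector 3. For 8 megakaryocyte and platelet markers the sum was 1346 to 2519 CPM in ERG libraries and 547 to 1182 CPM in vector libraries. ITGA2B made up most of it, overlapped between the groups and passed only with the set term. Of the 8 markers 5 rose and 0 fell, or 7 and 0 with the set term. Among the 5, PPBP had at most 0.391 CPM and SELP at most 0.352 CPM in vector libraries. Both passed the filter on low values only through their ERG libraries. Of the 15 erythroid markers 4 fell, or 13 with the set term, and none rose in either fit. The summed level of 3 granulocyte and monocyte markers overlapped between the groups (272 to 493 CPM in ERG libraries and 168 to 381 CPM in vector libraries), as did that of 4 lymphoid markers. CMA1, GP1BB and PF4 were not analysed here. The part of these cell types in the Rab results was not tested.

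RAB3C belongs to the RAB3 subfamily, which acts in regulated exocytosis and is best known from neurons and endocrine cells. It lies on chromosome 5 at 58582221 to 58859394 (hg38, plus strand). Its level was 4.61, 4.11 and 3.94 CPM in ERG libraries, against 0.704, 1.22 and 0.489 CPM in vector libraries. All 3 ERG libraries stood above all 3 vector libraries. The means were 4.22 ± 0.351 CPM in ERG libraries and 0.804 ± 0.375 CPM in vector libraries (SD, n = 3 each). The log2 fold change was 2.35 (SE 0.39, edgeR adjusted p = 0.0306), a 5.11-fold higher level with ERG. These values rest on 58 to 60 reads per ERG library and 5 to 16 per vector library, and the gene passed the filter on low values through its ERG libraries. With ERG 1 and ERG 2 summed as 1 library, RAB3C did not pass (log2 fold change 2.34, edgeR adjusted p = 0.147). Within set A the difference was 2.39 and within set B 2.12 on the log2 CPM scale. With 1 left out in turn, the edgeR adjusted p was 0.042 without ERG 3, 0.156 without ERG 1, 0.145 without ERG 2, and 0.0517, 0.0649 and 0.0921 without vector 1, 2 and 3, while the log2 fold change stayed between 2.12 and 2.79.

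RAB44 is a large, atypical Rab with a long N-terminal extension, studied in mouse mast cells and macrophages. It lies on chromosome 6 at 36697810 to 36733183 (hg38, plus strand). Its level was 29.2, 33.7 and 26.9 CPM in ERG libraries, against 15.3, 8.30 and 12.7 CPM in vector libraries. The groups did not overlap. The means were 29.9 ± 3.45 CPM and 12.1 ± 3.55 CPM for ERG and vector (SD, n = 3 each), and the log2 fold change was 1.31 (SE 0.24, edgeR adjusted p = 0.0431), which is 2.47-fold. With ERG 1 and ERG 2 summed as 1 library, RAB44 did not pass (log2 fold change 1.27, edgeR adjusted p = 0.193). Within set A the difference was 1.03 and within set B 1.37 on the log2 CPM scale. RAB44 passed without vector 1 (adjusted p = 0.0312) but not without ERG 1 (0.182), ERG 2 (0.214), ERG 3 (0.0512), vector 2 (0.102) or vector 3 (0.134), with log2 fold changes of 1.09 to 1.51.

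RAB37, found on the secretory granules of mouse mast cells, had the largest log2 fold change of the tested Rab genes but one of the widest intervals. Its level was 93.0, 86.6 and 28.9 CPM in ERG libraries, against 26.2, 5.10 and 6.85 CPM in vector libraries. The groups did not overlap, although ERG 3 and vector 1 nearly met, and both groups were higher in their set A libraries. The log2 fold change of 2.45 had a 95% interval of 0.84 to 4.06 and did not pass (edgeR adjusted p = 0.134), whereas with the set term it was 2.00 (adjusted p = 6.98e-05) and with DESeq2 the adjusted p was 0.00244. Without vector 1 it was 3.55 (edgeR adjusted p = 0.0326), but leaving out any other single library did not make RAB37 pass. Its edgeR adjusted p was 0.393, 0.398 and 0.0703 without ERG 1, 2 and 3, and 0.343 and 0.329 without vector 2 and 3. The log2 fold change in those fits was 2.07 to 2.82. Within each set ERG libraries were higher, by 1.77 in set A and 2.26 in set B (log2 CPM). RAB37 lies on chromosome 17 at 74670578 to 74747335 (hg38, plus strand).

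RAB8A carries post-Golgi vesicles to the cell surface and to the primary cilium, and was looked at after its values were seen. Its level was 63.0, 56.7 and 82.0 CPM in ERG libraries, against 46.4, 62.5 and 55.3 CPM in vector libraries, so the groups overlapped. It passed only with the set term (log2 fold change 0.42, edgeR adjusted p = 0.0224), against 0.30 (95% interval -0.13 to 0.73, adjusted p = 0.480) without. The exocytosis Rab with the most reads was RAB10, which brings vesicles with the glucose transporter GLUT4 to the surface in fat cells. It had 207.9, 219.7 and 223.4 CPM in ERG libraries, against 236.6, 227.3 and 235.3 CPM in vector libraries. All ERG libraries were below the vector libraries, but by a log2 difference of only -0.10 (95% interval -0.38 to 0.17, edgeR adjusted p = 0.705).

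RAB27A, which docks melanosomes, cytotoxic granules and platelet dense granules at the plasma membrane, had 16.0, 16.7 and 7.94 CPM in ERG libraries, against 23.8, 12.4 and 8.71 CPM in vector libraries. The groups overlapped, and all set A libraries were above all set B libraries. Its log2 fold change was -0.14 (95% interval -1.13 to 0.84, edgeR adjusted p = 0.889), so that a change of 1 log2 unit down is inside the interval. RAB3D, the RAB3 member of exocrine and mast cell granules, had 83.8, 91.7 and 56.1 CPM in ERG libraries, against 73.3, 37.3 and 50.9 CPM in vector libraries, which overlapped (log2 fold change 0.52, 95% interval -0.13 to 1.17). The other members, RAB3A, RAB8B, RAB13 and RAB26, had log2 fold changes of -0.17 to 0.31 and did not pass. RAB3B was not tested, with 2.03, 1.51 and 0.204 CPM in ERG libraries and 0.616, 0.381 and 0.391 CPM in vector libraries.

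Lysosome-related organelles, such as melanosomes and platelet dense granules, are supplied by the closely related RAB32 and RAB38. RAB32 had 6.18, 7.47 and 4.01 CPM in ERG libraries, against 1.58, 0.533 and 2.15 CPM in vector libraries, with no overlap. Its log2 fold change was 2.06 (SE 0.50, 95% interval 0.89 to 3.24) and did not pass (edgeR adjusted p = 0.0930), but it was 1.86 with the set term (adjusted p = 0.0214) and passed in DESeq2 (adjusted p = 0.00333). RAB38 had 27.2, 32.9 and 31.9 CPM in ERG libraries, against 36.3, 24.4 and 43.2 CPM in vector libraries, which overlapped (log2 fold change -0.17, 95% interval -0.69 to 0.34, edgeR adjusted p = 0.731). The log2 ratio of RAB32 to RAB38 within a library was -2.11, -2.12 and -2.95 in ERG libraries, against -4.39, -5.16 and -4.23 in vector libraries, a difference of 2.20. By an exact two-sided permutation test p was 0.1, the smallest that 3 against 3 libraries allow (0.433 adjusted over 13 pairs of related Rab genes). Of the 13 pairs, RAB32 to RAB38, RAB3C to RAB3D and RAB3C to RAB3A had all ERG libraries above all vector libraries, and the other 10 overlapped. RAB32 and RAB3C each had fewer than 3 vector libraries at 1 CPM, so these ratios restate their low vector levels and are not separate support. RAB32 rests on 59 to 109 reads per ERG library and 7 to 22 per vector library. RAB32 lies on chromosome 6 at 146543693 to 146554965 (hg38, plus strand).

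**Figure D2:**
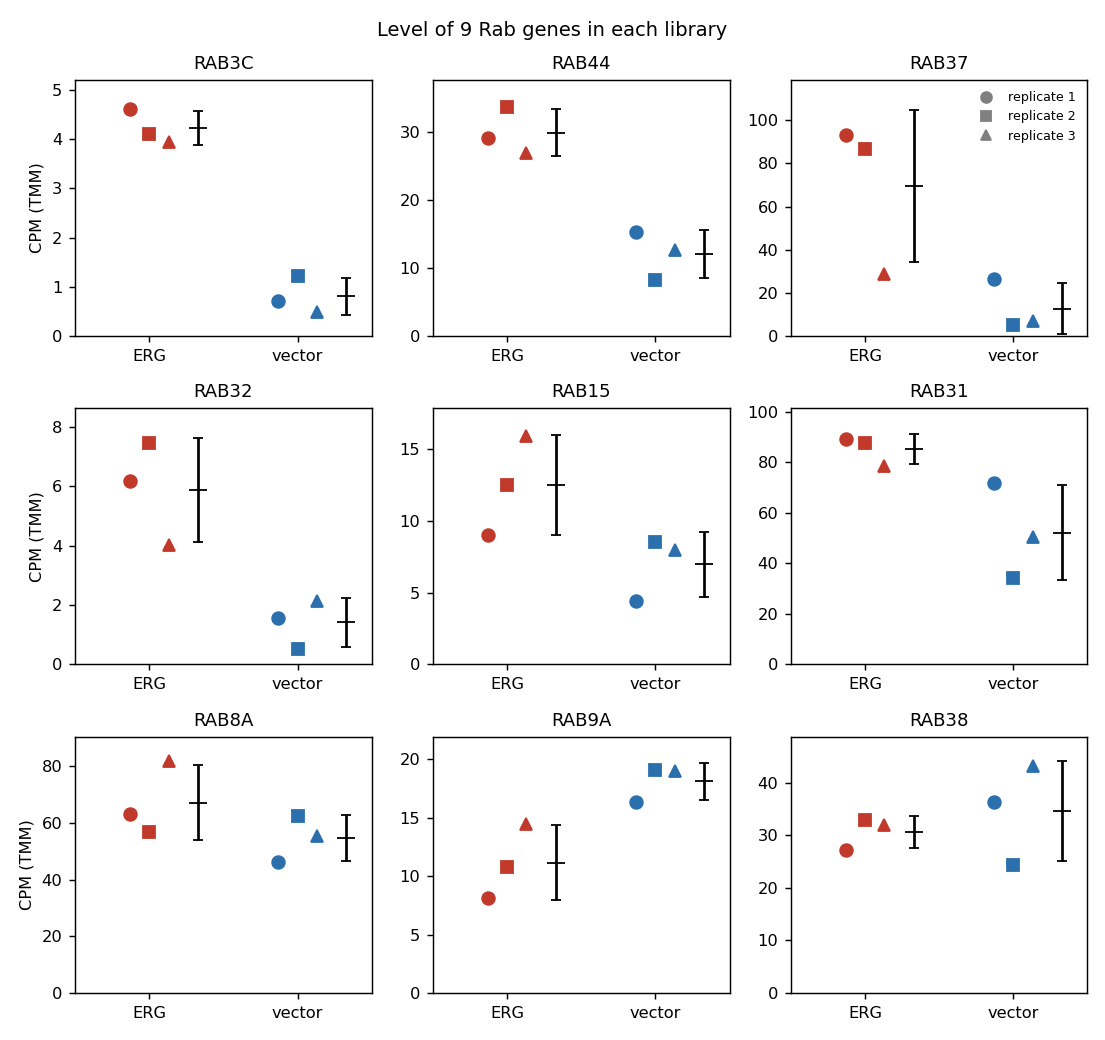
Level in CPM after TMM scaling of 9 Rab genes in each of the 3 ERG (red) and 3 vector (blue) libraries, with the black bar as mean ± SD. RAB3C, RAB44, RAB37, RAB32, RAB15 and RAB31 are higher in every ERG library than in any vector library, RAB9A is lower in every ERG library, and RAB8A and RAB38 overlap.

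Of the Rabs of the endoplasmic reticulum and Golgi, none of 13 tested members passed in either fit, and their median log2 fold change was 0.10. RAB1B, which with RAB1A drives traffic from the endoplasmic reticulum to the Golgi, was the most abundant by count. It had 168.4, 169.7 and 209.3 CPM in ERG libraries, against 169.8, 185.4 and 180.9 CPM in vector libraries. The groups overlapped and the 95% interval of the log2 fold change was -0.30 to 0.36. Intervals were as narrow for RAB1A (-0.30 to 0.28) and for RAB2A (-0.25 to 0.30), a tether-recruiting Rab of the Golgi. RAB6A and RAB6B, which carry vesicles within the Golgi and back to the endoplasmic reticulum, had log2 fold changes of 0.29 and 0.41. The other members with their own genes, RAB2B, RAB6D, RAB18, RAB33A, RAB33B and RAB34, had -0.15 to 0.63. RAB6B followed the library sets, with 145.3, 143.8 and 83.0 CPM in ERG libraries and 131.8, 82.2 and 65.7 CPM in vector libraries. The 2 ends of the list, RAB30 (1.06, 95% interval -0.14 to 2.25) and RAB43 (-0.89, 95% interval -1.86 to 0.08), had at most 2.11 CPM in any library. Their groups did not overlap, with RAB30 higher and RAB43 lower in ERG libraries. RAB43 and its pseudogene RAB43P1, like RAB6A and its close copy RAB6D, can share reads, so how reads were divided between them is uncertain.

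Of the early endosome Rabs, none of 8 tested members passed, with a median log2 fold change of 0.10, and RAB31 rose with the set term. RAB31 works between the trans-Golgi network and early endosomes. It had 89.4, 87.7 and 78.4 CPM in ERG libraries, against 71.8, 34.3 and 50.6 CPM in vector libraries. The groups did not overlap, with vector 1 nearest to the ERG libraries. The log2 fold change was 0.71 (95% interval 0.12 to 1.30, edgeR adjusted p = 0.232). With the set term it was 0.59 (adjusted p = 0.0427), and without vector 1 it was 1.01 (adjusted p = 0.0481). Leaving out any other single library did not make RAB31 pass. Its edgeR adjusted p was 0.597, 0.6 and 0.166 without ERG 1, 2 and 3, and 0.425 and 0.441 without vector 2 and 3. RAB5C, the most abundant of the RAB5 genes that fuse early endosomes, had 122.5, 121.3 and 151.9 CPM in ERG libraries, against 137.3, 157.1 and 143.9 CPM in vector libraries, which overlapped (log2 fold change -0.15, 95% interval -0.48 to 0.18). RAB5A and RAB5B had log2 fold changes of 0.18 and 0.10, and RAB4A, RAB20, RAB21 and RAB22A had -0.49 to 0.13. RAB31 lies on chromosome 18 at 9708165 to 9862551 (hg38, plus strand).

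Recycling endosome Rabs return receptors, among them the transferrin receptor, to the cell surface. None of 5 tested members passed, with a median log2 fold change of 0.13. RAB11A, the Rab of the slow recycling route, had 271.6, 255.9 and 268.9 CPM in ERG libraries, against 234.5, 224.7 and 209.3 CPM in vector libraries. All ERG libraries were above all vector libraries, with a log2 fold change of 0.25 (95% interval -0.04 to 0.54, edgeR adjusted p = 0.378). RAB15, known from the endosomes of neurons, had 8.99, 12.5 and 15.9 CPM in ERG libraries, against 4.40, 8.53 and 7.93 CPM in vector libraries. Here too the groups did not overlap, narrowly, and both groups were lower in their set A libraries. Its log2 fold change was 0.84 (95% interval 0.09 to 1.60, edgeR adjusted p = 0.265). With the set term it was 1.10 (adjusted p = 0.00829). RAB11B, the close relative of RAB11A, had 0.13. RAB14 and RAB35, which also serve recycling, had log2 fold changes of 0.01 and 0.00 with intervals of -0.30 to 0.31 and -0.34 to 0.34. RAB15 lies on chromosome 14 at 64945814 to 64973226 (hg38, minus strand).

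Of the Rabs of late endosomes, lysosomes and autophagy, none of 7 tested members passed, and the median log2 fold change was -0.18. RAB9A, which returns mannose 6-phosphate receptors from late endosomes to the trans-Golgi network, fell with the set term. It had 8.13, 10.8 and 14.5 CPM in ERG libraries, against 16.3, 19.1 and 19.0 CPM in vector libraries. Every ERG library was below every vector library. The log2 fold change was -0.70 (95% interval -1.26 to -0.15, edgeR adjusted p = 0.205). Fitted with the set term it was -0.58 (adjusted p = 0.0491). RAB7A, the Rab of late endosome and lysosome fusion and the most abundant of the list, had 265.6, 284.6 and 318.2 CPM in ERG libraries, against 264.5, 323.9 and 273.5 CPM in vector libraries. The groups overlapped, and the 95% interval of its log2 fold change was -0.33 to 0.35. The log2 fold changes of RAB12, RAB24 and RAB29 lay between -0.42 and 0.23. RAB39A and RAB39B, linked to autophagy and endosomes, moved with the sets in opposite ways, with set A libraries low for RAB39A and high for RAB39B. RAB39A had 0.704, 0.686 and 2.85 CPM in ERG libraries and 0.264, 2.36 and 2.54 CPM in vector libraries, while RAB39B had 13.1, 9.53 and 2.24 CPM in ERG libraries and 10.3, 3.88 and 2.64 CPM in vector libraries. RAB9A lies on chromosome X at 13689125 to 13710506 (hg38, plus strand).

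Of 4 Rabs of the cilium or with less settled sites, none passed in either fit. RAB40C, part of a cullin ubiquitin ligase, had 25.5, 25.4 and 32.0 CPM in ERG libraries, against 34.2, 35.6 and 43.4 CPM in vector libraries. Its groups did not overlap, and the log2 fold change was -0.45 (95% interval -0.84 to -0.06, edgeR adjusted p = 0.248). Its relative RAB40B had -0.40, also with no overlap. RAB23, a brake on Hedgehog signalling, and RAB28 had 0.34 and 0.07. The pseudogenes RAB1C, RAB28P5 and RAB43P1 had 0.59, 0.37 and -0.16 and did not pass. In GENCODE v29, RAB1A, RAB2B, RAB3A, RAB3D, RAB6B, RAB11B, RAB23, RAB24, RAB27A, RAB28P5 and RAB40C share exon bases with a gene of the table, from 31 bases for RAB28P5 with RBMX to 2842 for RAB23 with BAG2, which is on the other strand. Whether counting used strand is unknown. The shared bases are on the same strand for RAB24 with MXD3 (926 bases) and RAB27A with PIGBOS1 (183). The same holds for RAB3D with TMEM205 (144) and RAB40C with WFIKKN1 (34). Reads from shared bases therefore cannot be assigned to 1 gene. RAB3C, RAB44, RAB37 and RAB32 share none with a gene of the table.

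**Figure D3:**
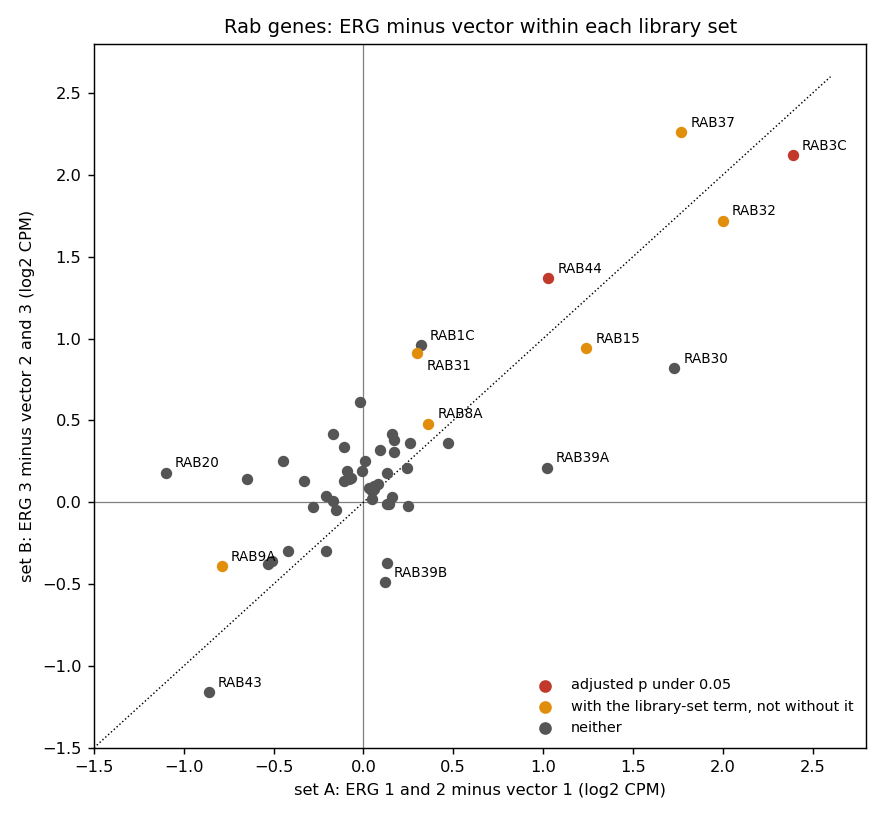
Difference in log2 CPM, ERG minus vector, within library set A (x axis: ERG 1 and 2 minus vector 1) and within set B (y axis: ERG 3 minus vector 2 and 3) for the 53 tested Rab genes, with the dotted line marking equal differences. RAB3C (2.39 and 2.12), RAB32 (2.00 and 1.72), RAB37 (1.77 and 2.26) and RAB44 (1.03 and 1.37) lie far above 0 in both sets. So do RAB30 (1.73 and 0.82), which has few reads, and RAB15 (1.24 and 0.94), and most others lie near 0.

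Per length, as CPM per kilobase of merged exons, the Rabs at the top of the family were RAB7A, RAB1B, RAB10, RAB5C and RAB11A in ERG libraries, none of which passed in either fit. RAB7A had a mean of 106.5 CPM per kilobase in ERG libraries and 105.7 in vector libraries, and RAB1B had 90.9 in ERG libraries and 89.0 in vector libraries. RAB10 had 59.8 with ERG and 64.2 with vector, and RAB11A had 46.7 with ERG and 39.2 with vector. Of the secretory and granule Rabs that passed in either fit, RAB37 had 13.7 CPM per kilobase in ERG libraries and 2.51 in vector libraries, RAB8A had 12.9 with ERG and 10.5 with vector, RAB44 had 7.0 with ERG and 2.83 with vector, and RAB32 had 4.84 with ERG and 1.17 with vector. RAB3C was among the least abundant, with 0.437 in ERG libraries and 0.0833 in vector libraries.

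**Figure D4:**
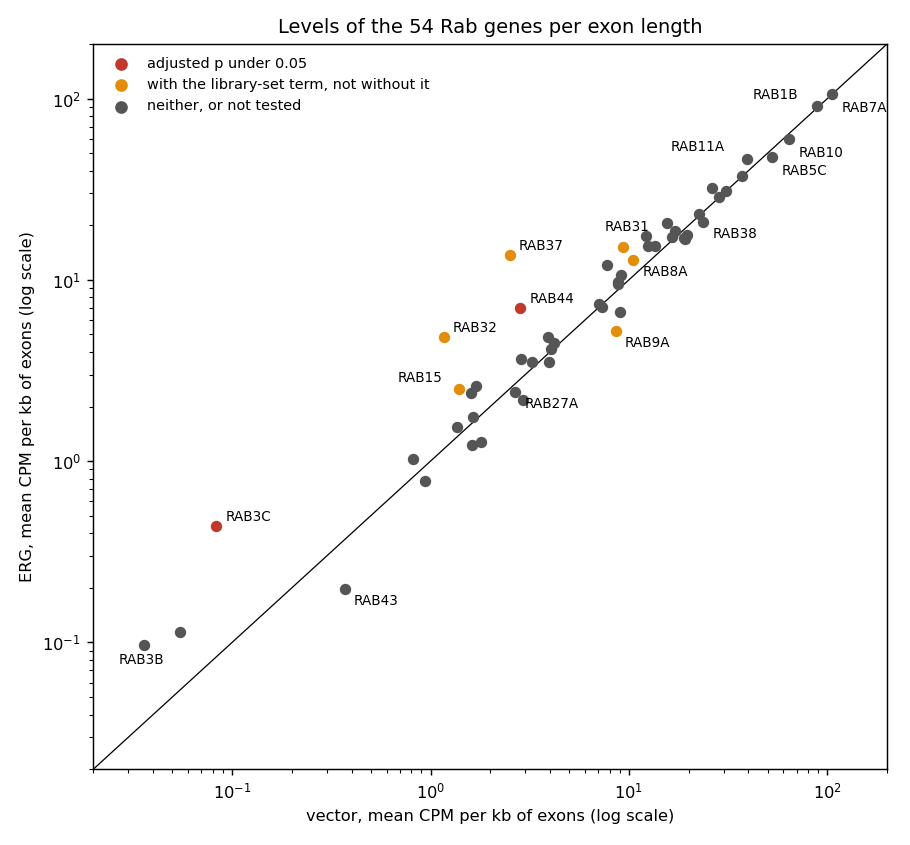
Mean level of the 54 Rab genes in CPM per kilobase of merged exons, in ERG libraries (y axis) against vector libraries (x axis), both on a log scale, with the line marking equal levels. RAB7A and RAB1B sit at the top near the line, RAB37, RAB44, RAB32 and RAB3C lie above it at middle and low levels, and RAB9A lies below it.

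Rabs depend on proteins that switch and read them. Lists of such proteins, 9 in all, were drawn up with earlier results of these data known. Their 175 tested genes were set beside the family. With ERG, 7 rose and 1 fell (4.57%, against 2.20% of all genes), with a median log2 fold change of 0.00. Over all genes 1.47% rose and 0.732% fell. DESeq2 called 8 partner genes higher and 6 lower, while it called 4.20% of all genes as higher and 2.89% as lower. With the set term edgeR called 14 higher and 13 lower (15.4%, against 13.2% of all genes), a share near the background. Limma-voom called 4 higher and 1 lower, while it called 269 of 14203 genes in all. With the replicate number as a term, edgeR called 7 higher and 2 lower, while it called 905 genes in all. The list of secretory granule and lysosome-related organelle effectors had 3 of 24 higher and 0 lower (4 and 2 when the set term was added), that of exchange factors 2 of 32 higher and 1 lower (4 and 3), that of GAPs 1 of 35 higher and 0 lower (2 and 2), and the exocyst 1 of 9 higher and 0 lower in both fits. Prenylation and GDI (11 tested), Golgi effectors (13), early and recycling endosome effectors (19), late endosome effectors (18) and TRAPP subunits (14) had no call. With the set term, the first of these lists had 0 higher and 2 lower, Golgi effectors 1 and 0, early and recycling endosome effectors 2 and 2, late endosome effectors 0 and 2, and TRAPP again none. The 2 most abundant genes of each list without a call had log2 fold changes of -0.51 to 0.32. Among them GDI2, which recycles Rabs in the GDP form, had 219.6, 218.8 and 235.5 CPM in ERG libraries, against 231.3, 232.4 and 225.2 CPM in vector libraries.

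Granule effectors that rose were SYTL4, SYTL3 and MYO5A. SYTL4, or granuphilin, is an effector of RAB27 and RAB3 that docks dense-core granules. It had 33.2, 33.1 and 30.9 CPM in ERG libraries, against 16.3, 17.7 and 19.2 CPM in vector libraries (log2 fold change 0.87, SE 0.14, edgeR adjusted p = 0.0295). SYTL3, of the same synaptotagmin-like family, had 11.9, 13.2 and 8.76 CPM in ERG libraries, against 4.75, 3.96 and 2.74 CPM in vector libraries (1.56, SE 0.29, adjusted p = 0.0427). MYO5A, the actin motor that RAB27A recruits to melanosomes through melanophilin, had 58.6, 59.0 and 44.2 CPM in ERG libraries, against 30.3, 20.7 and 26.8 CPM in vector libraries (1.06, SE 0.19, adjusted p = 0.0423). In all 3 genes every ERG library was above every vector library. RAB27A, which is not the only Rab that such effectors serve, overlapped between the groups.

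The exocyst, which tethers secretory vesicles to the plasma membrane, had 1 member that rose. EXOC6B, a form of the subunit that binds RAB11, had 50.2, 55.8 and 51.4 CPM in ERG libraries, against 12.8, 11.6 and 12.6 CPM in vector libraries. The groups lay far apart, with a log2 fold change of 2.09 (SE 0.14, edgeR adjusted p = 0.00898), a 4.26-fold higher level. The other 8 subunits did not pass, and the median of the list was 0.01.

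Of the exchange factors, MADD, which activates RAB3 and RAB27 proteins, had 152.2, 151.6 and 119.5 CPM in ERG libraries, against 79.6, 83.1 and 77.2 CPM in vector libraries (log2 fold change 0.82, SE 0.14, edgeR adjusted p = 0.0340). DENND3, which activates RAB12, had 82.5, 83.4 and 38.8 CPM in ERG libraries, against 26.2, 16.2 and 15.9 CPM in vector libraries (1.81, SE 0.34, adjusted p = 0.0442). Both rose without overlap, with ERG 3 the lowest of the ERG libraries. RAB3IL1, an exchange factor for RAB8 that also binds RAB3A, fell: it had 9.07, 9.94 and 6.79 CPM in ERG libraries, against 23.9, 34.1 and 19.4 CPM in vector libraries (-1.59, SE 0.26, adjusted p = 0.0306). TBC1D32, placed with the GAPs for its TBC domain and known from cilia, had 32.3, 30.6 and 41.8 CPM in ERG libraries, against 18.2, 16.2 and 20.5 CPM in vector libraries (0.93, SE 0.18, adjusted p = 0.0496). Leaving out single libraries ended many of these calls but moved no log2 fold change across 0. Without ERG 1 the edgeR adjusted p of the 7 genes other than EXOC6B was 0.147 to 0.203, without ERG 2 0.125 to 0.224, without vector 2 0.102 to 0.19 and without vector 3 0.0616 to 0.159. Without ERG 3, RAB3IL1 (0.0502) and TBC1D32 (0.0646) were lost, and without vector 1 TBC1D32 (0.0701). EXOC6B was lost without ERG 2 (0.0718) and, just over the threshold, without ERG 1 (0.05 when rounded).

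**Figure D5:**
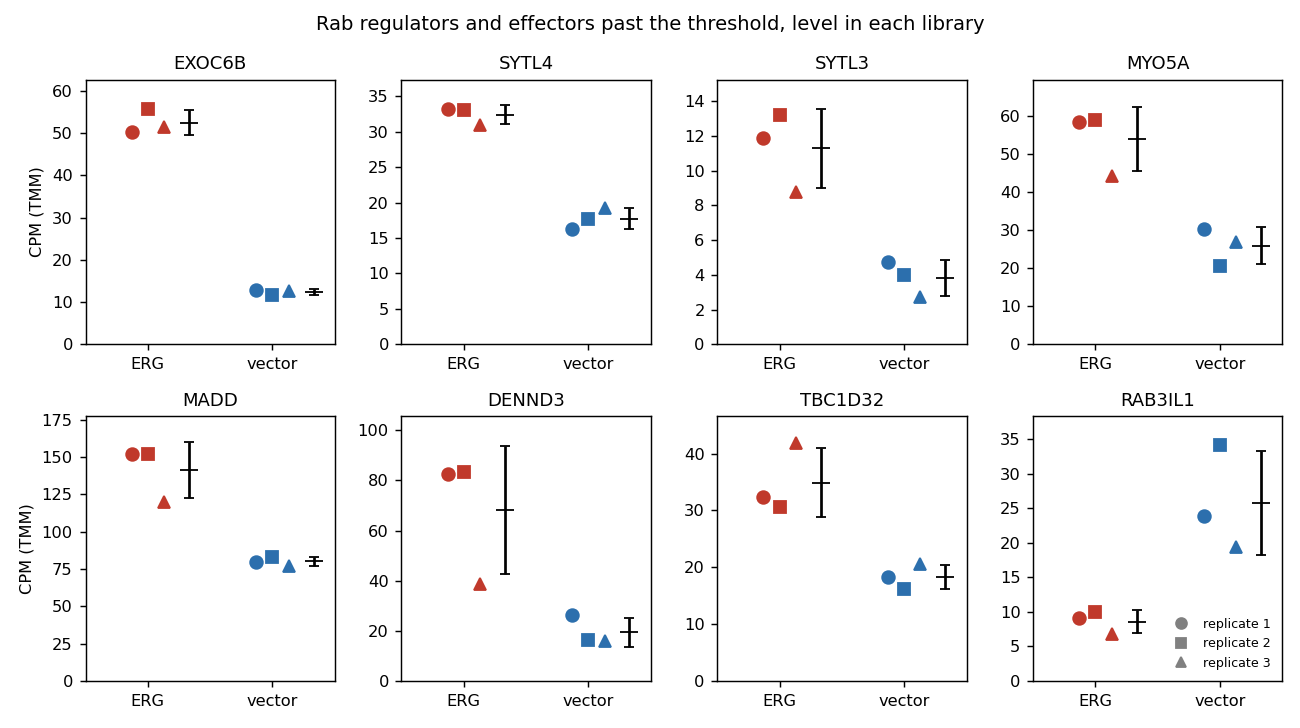
Level in CPM after TMM scaling of the 8 Rab regulators and effectors past an adjusted p of 0.05, in each of the 3 ERG (red) and 3 vector (blue) libraries, with the black bar as mean ± SD. In 7 genes every ERG library is above every vector library, with EXOC6B the most widely separated, and RAB3IL1 is lower in every ERG library.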

How the data were processed

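Polyadenylated RNA of F36P cells was sequenced in bulk. The authors deposited 1 table of whole-number read counts, which its name calls CPM. The submitters' processing notes name hg38 and edgeR 3.32.1; aligner, counter, annotation and strand are not given in the sources used here. Control columns were taken as vector, the only other group. No per-sample column was left unused (0).

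From the counts, edgeR 4.0.16 (R 4.3.3) gave TMM-scaled CPM and a two-sided quasi-likelihood test over 14203 of 14821 genes (at least 1 CPM in at least 3 libraries), with Benjamini-Hochberg adjustment and a threshold of 0.05. The SE was the log2 fold change divided by the square root of F. DESeq2 1.42.0 and limma 3.58.1 were alternatives. The function that fits the models was tested on simulated counts, and the other steps were not. Coordinates and exon lengths came from GENCODE v29 (hg38).

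Between ERG 1 and ERG 2 the chi-square per degree of freedom was 2.20, against 21.6 to 86.9 for other pairs. This is above sampling noise but does not show that they came from separate cultures. They were counted as 2 replicates, and with them summed no gene passed. Rab members, lists, library sets and alternatives were chosen with earlier results of these data known. Values in every library are given for Rab genes past the threshold in either fit, the highest-count gene of each step and RAB27A, and for partner genes up to 4 past the threshold per list, or the 2 highest where none passed. Other genes named were chosen after their values were seen. RAB6C, RAB19, RAB36, RAB41, RAB4B, RAB17, RAB25, RAB7B, RAB9B, RAB42 and RAB40A were not analysed here.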

Additional observations from a re-analysis of the deposited data

How the results depend on the processing

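The Rab calls depended on the model and on single libraries. With DESeq2, the replicate block, the set term, ERG 1 and 2 summed, and that sum with the set term, edgeR or DESeq2 called 1006, 905, 1869, 0 and 1001 genes in all, against 313. For Rab genes higher these settings gave 4, 4, 7, 0 and 4, against 2, and for Rab genes lower the set term gave 1, against 0. For partner genes higher, limma-voom gave 4, the set term 14, ERG 1 and 2 summed 0 and the sum with the set term 11, against 7. For partner genes lower, DESeq2 gave 6, the replicate block 2, the set term 13, the sum 0 and the sum with the set term 9, against 1. With ERG 1 and 2 summed, 1277 genes had an unadjusted edgeR p under 0.05. With 1 library left out, 0 to 441 genes passed in all, with 0 to 3 Rab genes higher, 0 to 7 partner genes higher and 0 to 1 lower. The 0 came without ERG 1 (1278 at an unadjusted edgeR p under 0.05) and without ERG 2 (1256), 19 genes passed without vector 2 and 51 without vector 3. The cause was not tested. Depth limits the rarest members, since RAB3B had 3 to 26 reads in ERG libraries and 4 to 7 in vector libraries. Whether the replicate numbers pair the samples was not settled. Deviations of same-numbered libraries had correlations of 0.628, -0.285 and 0.589, and the pairs with positive values each lie within 1 library set. With the replicate block the 4 Rab calls were RAB3C, RAB44, RAB37 and RAB32.

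Signs turned only among genes with a log2 fold change of at most 0.56 in size. ERC1 had 0.05 with limma-voom, 0.05 with the replicate block, 0.26 with the set term, 0.08 with ERG 1 and 2 summed and 0.24 with both. With the set term, the sum, and both, RAB1A had 0.01, 0.02 and 0.03 and RAB39A had 0.50, 0.00 and 0.51. RAB39B had -0.15 with the set term and -0.21 with both, where TRAPPC8 had 0.07 and 0.05. With RLE scaling and with DESeq2, RAB14 had 0.00 and 0.00 and RAB35 had -0.01 and -0.01. Leaving out single libraries gave ranges across 0 for RAB11B (-0.01 to 0.24), RAB14 (-0.06 to 0.08), RAB18 (-0.11 to 0.03), RAB1A (-0.06 to 0.03), RAB1B (-0.08 to 0.08), RAB21 (-0.03 to 0.11), RAB24 (-0.40 to 0.13), RAB26 (-0.01 to 0.28), RAB27A (-0.41 to 0.36), RAB28 (-0.01 to 0.14), RAB2A (-0.02 to 0.06), RAB2B (-0.01 to 0.33), RAB35 (-0.10 to 0.06), RAB38 (-0.37 to 0.02), RAB39A (-1.29 to 0.09), RAB3A (-0.42 to 0.01), RAB4A (-0.02 to 0.20), RAB6D (-0.01 to 0.17), RAB7A (-0.06 to 0.11), RAB8B (-0.02 to 0.25), ERC1 (-0.27 to 0.42), TRAPPC8 (-0.13 to 0.10) and YIPF2 (-0.47 to 0.08).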

Other observations

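Some partner genes passed with the set term but not without it, and UNC13D and OPTN are named after their values were seen. UNC13D, the RAB27 effector Munc13-4 that primes granules for release, had 352.0, 366.2 and 297.7 CPM in ERG libraries, against 258.0, 264.5 and 230.8 CPM in vector libraries (log2 fold change 0.43, edgeR adjusted p = 0.200 without and 0.0367 with that term). RAB11FIP1, an effector of RAB11, had 103.5, 108.3 and 74.2 CPM in ERG libraries, against 176.0, 118.9 and 112.6 CPM in vector libraries (-0.51, adjusted p = 0.325 and 0.000804). PLIN3, an effector of RAB9, had 148.0, 143.1 and 165.4 CPM in ERG libraries, against 220.4, 197.1 and 194.6 CPM in vector libraries (-0.42, adjusted p = 0.165 and 0.0206), and also passed in DESeq2 (adjusted p = 0.0249). OPTN, an effector of RAB8, had 3.13, 3.91 and 2.04 CPM in ERG libraries, against 13.6, 5.94 and 3.23 CPM in vector libraries, which overlapped (-1.32, adjusted p = 0.284 and 0.00874).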
